A study of Mus musculus with 7 samples.

Results

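The SOCS and STAT3 arm of cytokine signalling was examined through 10 genes, selected by symbol from the 25571 rows of the deposited gene counts. They are the cytokines Osm and Il10, the receptor chains Il6ra, Il6st and Il10ra, the transcription factor Stat3, and the feedback inhibitors Socs1, Socs2, Socs3 and Cish. All 10 had a row, and all 10 passed the filter on low counts that left 15822 genes for testing. RNA came from cells sorted on CD11b, an integrin chain of myeloid cells, out of orthotopic xenografts of the glioblastoma T387 in NSG mice. The 4 Pracinostat samples came from mice given this histone deacetylase inhibitor by mouth at 30 mg/kg, on 4 occasions a week for 3 weeks from day 7 after implantation. The 3 DMSO samples came from mice given the same solvent mixture, with DMSO, PEG300, Tween-80 and PBS but no drug. Both groups share the tumour and the host, an immunodeficient strain without lymphocytes, so lymphocyte sources of these cytokines are missing in both. NSG mice carry the scid mutation and a null allele of Il2rg, the gene of the common gamma chain of several interleukin receptors. The labels call the samples biological replicates without naming the animals, and a prepared-drug strength of 3 mg/kg also appears there.

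Cytokines of the IL-6 family, oncostatin M included, signal through the shared receptor chain gp130, encoded by Il6st. IL-10 uses a receptor pair without gp130. Both routes activate JAK kinases and phosphorylate STAT3, which enters the nucleus and switches on target genes, among them Socs3. SOCS3 protein then binds gp130 and its JAKs and shuts that receptor down, but it does not dock on the IL-10 receptor, which is why macrophages hold a long STAT3 response to IL-10. Phosphorylated STAT3 was not measured here, so the values below are transcript levels only.

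STAT proteins bind DNA at palindromes of the form TTCNNNGAA, where N is any base, and SOCS genes are textbook STAT targets. Promoter sequences from RefSeq, in the build GRCm38.p6, were at hand for 6 of the 10 genes (Socs1, Socs3, Cish, Stat3, Il6ra and Il6st). Each covered 250 bases before and 50 after the annotated start. Since the motif is its own reverse complement, one search covers both strands. It was found in Socs3 and Cish, and 8.3% of all 32851 promoters of this length hold at least 1 copy. Cish held 2 copies, as 0.457% of all promoters do (2 or more). The stretches that carry these matches are shown because they are the candidate STAT-binding letters of the feedback genes, with each motif in capitals.
Socs3, chr11:117969507-117969580, minus strand: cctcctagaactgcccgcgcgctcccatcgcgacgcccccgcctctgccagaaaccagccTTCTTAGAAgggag
Cish, chr9:107296599-107296683, plus strand: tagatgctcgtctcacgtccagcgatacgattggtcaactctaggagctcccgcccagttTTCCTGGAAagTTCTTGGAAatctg
The Socs3 motif begins at -154 relative to the annotated start, counted as +1. The Cish motifs begin at 1 and 12, just inside the annotated transcript. A match describes letters in this window and is not evidence of binding.

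No gene among the 10 passed the test over all genes between Pracinostat and DMSO. With edgeR's quasi-likelihood test and Benjamini-Hochberg adjustment over 15822 genes, 0 of the 10 had an adjusted p under 0.05, against 0% of all genes tested (0 of 15822). At an unadjusted p under 0.05 the count was 0 of 10, against 4.18% of all genes. Groups did not overlap for 0 of 10, against 6.1% of all genes. DESeq2 and limma-voom also called 0 of the 10, and gave 0 of 10 at an unadjusted p under 0.05. Log2 fold changes, Pracinostat minus DMSO, were positive for 8 of 10 with a median of 0.21, where 52.3% of all genes were positive and the median of all genes was 0.02. Without 1 library the median of the 10 ran from 0.13, without Pracinostat replicate 2, to 0.28, without Pracinostat replicate 3, and 6 to 9 of the 10 were positive. No test was made of that count, since genes of the same libraries are not independent.

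**Figure D1:**
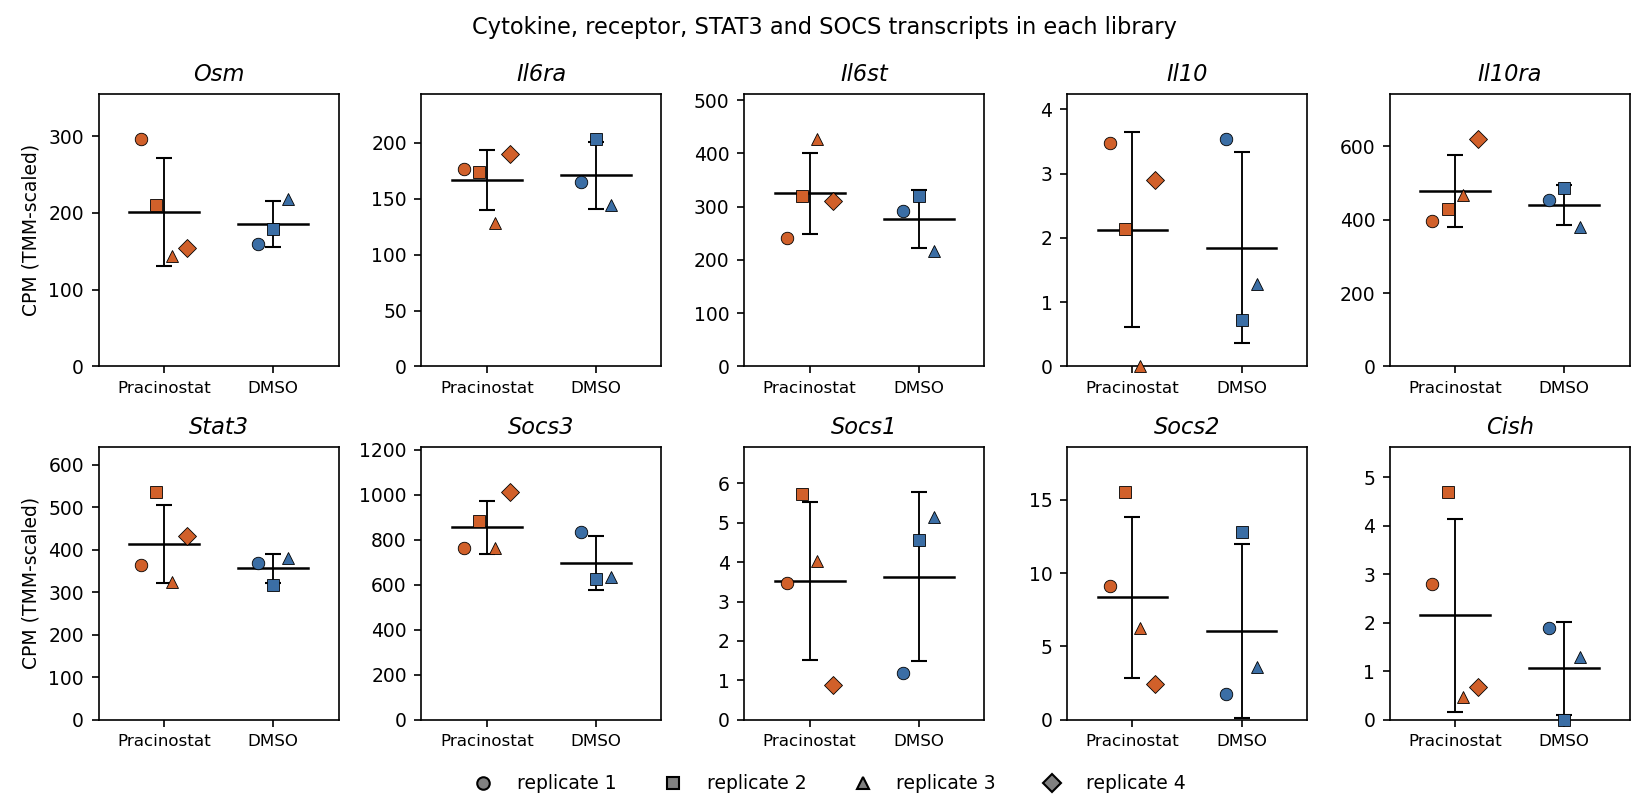
CPM, the counts scaled to library size with edgeR's TMM factors, of each of the 10 genes in 4 Pracinostat libraries (orange) and 3 DMSO libraries (blue); lines are group means, bars are SD, and marker shapes give the replicate number. In every panel the groups overlap; for Socs3 the DMSO library at 836 CPM lies among the Pracinostat values.

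Depth overlapped, with 10142753 to 16950597 counts in the Pracinostat libraries and 12033372 to 15853430 in the DMSO libraries. Genes detected numbered 17795 to 19244 with Pracinostat and 16319 to 18065 with DMSO. Pracinostat replicates 1, 3 and 4, at 19244, 18302 and 18656, exceeded every DMSO library, although replicate 4 had the fewest counts of all. The cause was not tested. Markers of macrophages and microglia (Itgam, Ptprc, Csf1r, Adgre1, Aif1, Cx3cr1, Mertk and C1qa), all 8 of them detected, summed to 7314 to 10996 CPM with Pracinostat and 7400 to 8689 CPM with DMSO. Lymphocyte markers, of which 5 of 8 had a row, summed to 0.304 to 0.818 CPM and 0 to 1.49 CPM. Neutrophil markers other than Csf3r varied widely, from 6.22 to 137 CPM with Pracinostat and 8.76 to 133 CPM with DMSO, with Ly6g, Retnlg, S100a9 and Mpo at 0 in some libraries. Csf3r, the marker left out, did not vary so widely, at 320 to 411 CPM with Pracinostat and 271 to 359 CPM with DMSO. With Csf3r the neutrophil sum was 366 to 468 CPM with Pracinostat and 280 to 492 CPM with DMSO. Fibroblast markers (Col1a1, Col1a2, Col3a1, Dcn and Lum) summed to 695 CPM in Pracinostat replicate 1 and 1056 CPM in DMSO replicate 2. In the other libraries the sum was 15.8 to 57.8 CPM. Collagens made up nearly all of the high sums, with Col1a1 at 440 CPM in Pracinostat replicate 1 and 702 CPM in DMSO replicate 2. In the same order Dcn had 0.82 and 1.84 CPM, and Lum 0.48 and 0 CPM.

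Among the cytokines, Osm encodes oncostatin M, a gp130 cytokine that myeloid cells secrete. It stood at 296, 211, 144 and 154 CPM in Pracinostat replicates 1 to 4, and at 159, 179 and 218 CPM in DMSO replicates 1 to 3. The Pracinostat libraries thus held both the highest value and the lowest, and enclosed the whole DMSO range. Group means were 201 ± 69.8 CPM with Pracinostat (SD, n = 4) and 185 ± 29.8 CPM with DMSO (SD, n = 3). The log2 fold change was 0.12 ± 0.23 (standard error), with an edgeR adjusted p of 0.9998. Without Pracinostat replicate 1 it was -0.12. Neutrophils are another known source of Osm. The neutrophil sum without Csf3r was 137 CPM in Pracinostat replicate 1 and 6.22 CPM in replicate 3, the libraries with the most and the least Osm, but 133 CPM in DMSO replicate 1, which had the least Osm of its group; its part in the Osm values was not tested. In bulk RNA, fewer cells of a type and less RNA per cell cannot be told apart.

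Il10, the cytokine that restrains macrophage activation, was scarce. It had 51, 35, 0 and 30 counts in Pracinostat replicates 1 to 4, which is 3.48, 2.13, 0 and 2.90 CPM, and 45, 9 and 20 counts in DMSO replicates 1 to 3, which is 3.54, 0.72 and 1.29 CPM. A count of 0 in Pracinostat replicate 3 allows up to 0.198 CPM (3 counts, counting error only). The groups overlapped almost fully. The log2 fold change of 0.20 ± 1.33 had a 95% interval of -2.65 to 3.05, so a change of several fold in either direction was not detectable with these 7 libraries. By limma-voom the value was -0.82.

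Of the receptor chains, Il6st, the gp130 subunit shared by the IL-6 family, stood at 242, 320, 427 and 310 CPM in Pracinostat replicates 1 to 4 and at 293, 321 and 217 CPM in DMSO replicates 1 to 3. Replicate 3 was the only Pracinostat library above all DMSO libraries. The log2 fold change was 0.23 ± 0.20 (edgeR adjusted p = 0.9998), and 0.07 without Pracinostat replicate 3. Without the 2 libraries rich in collagen transcripts it was 0.48, with an unadjusted p of 0.0455 and an adjusted p of 0.9998. Il6ra, the chain that binds IL-6 and hands it to gp130, had 176, 174, 128 and 190 CPM in Pracinostat replicates 1 to 4 and 165, 203 and 144 CPM in DMSO replicates 1 to 3. The lowest value belonged to Pracinostat and the highest to DMSO. Its log2 fold change was -0.03 ± 0.18, the smallest in size among the 10.

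Il10ra, the ligand-binding chain of the IL-10 receptor, stood at 397, 430, 467 and 620 CPM in Pracinostat replicates 1 to 4. In DMSO replicates 1 to 3 it stood at 454, 486 and 380 CPM. Pracinostat replicate 4 alone lay above the DMSO range, and without it the log2 fold change of 0.12 ± 0.17 became -0.05. The values of its partner chain Il10rb are given beside it. Il10rb had 182, 160, 118 and 141 CPM in Pracinostat replicates 1 to 4, against 202, 215 and 202 CPM in DMSO replicates 1 to 3, so every Pracinostat value lay below every DMSO value. Its log2 fold change was -0.46 ± 0.17 with an unadjusted p of 0.0157, and it did not pass adjustment over all genes (edgeR adjusted p = 0.9998). Of all genes tested, 1.37% were lower at an unadjusted p under 0.05, and 2.59% were lower with groups that did not overlap. Whether the 2 chains differ from each other in their response was not tested.

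Stat3, the factor on which these receptors converge, stood at 364, 535, 325 and 431 CPM in Pracinostat replicates 1 to 4, and at 370, 318 and 381 CPM in DMSO replicates 1 to 3. Pracinostat replicates 2 and 4 lay above all DMSO libraries and the other 2 lay within their range. Means were 414 ± 92.2 CPM with Pracinostat (SD, n = 4) and 356 ± 33.9 CPM with DMSO (SD, n = 3). The log2 fold change was 0.22 ± 0.18 (edgeR unadjusted p = 0.245, adjusted p = 0.9998). Leaving out Pracinostat replicate 2 gave 0.07 and leaving out replicate 3 gave 0.32.

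Socs3, the main STAT3-induced brake on gp130, had the smallest p of the 10 genes and ranked at 1242 of 15822 by p. It stood at 762, 885, 765 and 1012 CPM in Pracinostat replicates 1 to 4, and at 836, 624 and 633 CPM in DMSO replicates 1 to 3. All Pracinostat libraries exceeded DMSO replicates 2 and 3, and 2 of them exceeded DMSO replicate 1. Means were 856 ± 119 CPM with Pracinostat (SD, n = 4) and 698 ± 120 CPM with DMSO (SD, n = 3). The log2 fold change of 0.29 ± 0.16 had a 95% interval of -0.06 to 0.64 (edgeR unadjusted p = 0.0929, adjusted p = 0.9998). Without DMSO replicate 1 it was 0.45 with an unadjusted p of 0.0255 and an adjusted p of 0.944.

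The other 3 feedback genes were scarce. Socs1, which restrains interferon receptors, had 3.48, 5.72, 4.03 and 0.87 CPM in Pracinostat replicates 1 to 4 and 1.18, 4.56 and 5.15 CPM in DMSO replicates 1 to 3. Each group held 1 library near 1 CPM and others several times higher, and the log2 fold change was -0.04 ± 0.82. Socs2, best known as the brake on the growth hormone receptor, had 9.13, 15.5, 6.28 and 2.42 CPM in Pracinostat replicates 1 to 4 and 1.73, 12.8 and 3.61 CPM in DMSO replicates 1 to 3. Its log2 fold change of 0.47 ± 0.71 turned on single libraries. It was -0.02 without Pracinostat replicate 2, and 1.64 without DMSO replicate 2 (unadjusted p = 0.0473, edgeR adjusted p = 0.9994). Cish, the founding SOCS gene and a STAT5 target, had 41, 77, 7 and 7 counts in Pracinostat replicates 1 to 4 and 24, 0 and 20 counts in DMSO replicates 1 to 3. Those counts equal 2.79, 4.69, 0.463 and 0.677 CPM, against 1.89, 0 and 1.29 CPM, where a count of 0 in DMSO replicate 2 allows up to 0.24 CPM. Its log2 fold change of 1.02 ± 1.47 was the largest of the 10 and the least precise, and ran from 0.31 without Pracinostat replicate 2 to 1.72 without DMSO replicate 1.

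Dendritic cell markers (Flt3, Zbtb46, Xcr1, Clec9a, Ccr7 and Cd209a) also varied between libraries. All 6 were detected, with sums of 94.5, 133, 22.7 and 72.9 CPM in Pracinostat replicates 1 to 4 and 78.8, 92.1 and 33.1 CPM in DMSO replicates 1 to 3, and with Clec9a and Cd209a at 0 in some libraries. Pracinostat replicate 2 had the highest of these sums and the highest Socs1, Socs2 and Cish. DMSO replicate 2, with the third-highest sum, had 0 counts for Cish, and Pracinostat replicate 3, with the lowest sum, had Socs1 at 4.03 CPM, above the mean of either group. The part of these cells in the SOCS values was not tested.

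The precision split the 10 genes into 2 sets. For the 6 with a DMSO mean above 20 CPM (Socs3, Il10ra, Stat3, Il6st, Osm and Il6ra), every 95% interval lay between -0.42 and 0.66 on the log2 scale, inside a 2-fold change in either direction. These intervals are not adjusted for the number of genes. For the 4 genes below that level (Socs1, Socs2, Cish and Il10), each interval reached beyond a 2-fold change in both directions.

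**Figure D2:**
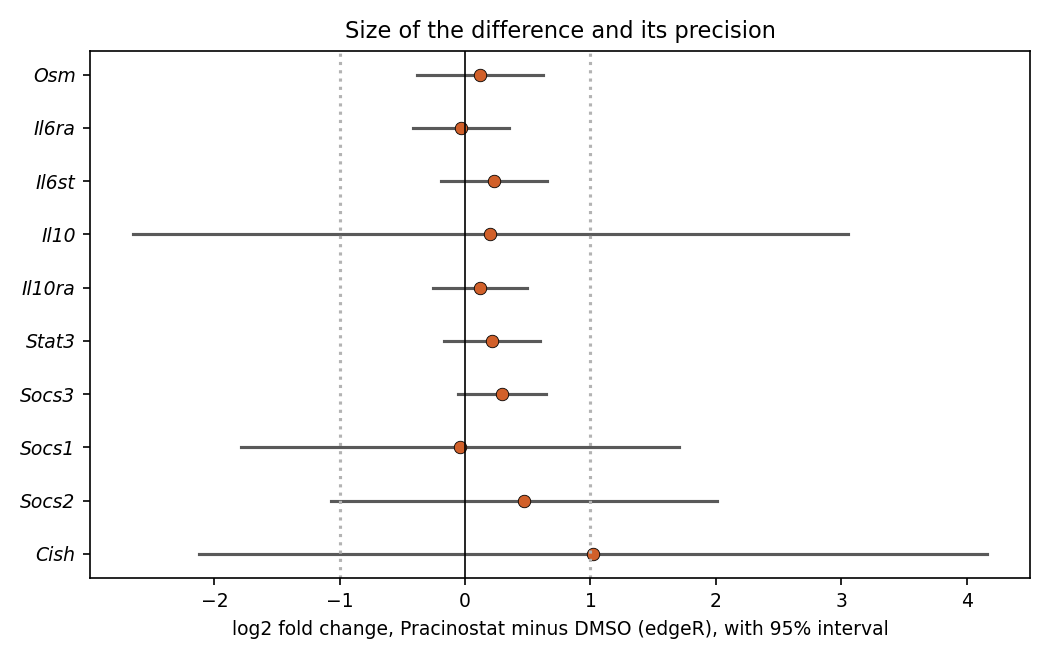
Log2 fold change of each gene, Pracinostat minus DMSO, from edgeR (points) with its 95% interval (lines); dotted lines mark a 2-fold change either way. The intervals of Osm, Il6ra, Il6st, Il10ra, Stat3 and Socs3 stay between the dotted lines, and those of Il10, Socs1, Socs2 and Cish cross both.

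Spread was taken as the SD of log2 CPM about each group's own mean, pooled over both groups. This SD exceeded the median for genes within 0.5 log2 CPM of the same level in 10 of 10. It was 0.40 for Osm, against a median of 0.22 for the 990 genes of like level, which placed it at percentile 89.5. For Socs2 it was 1.24 against 0.66 (percentile 90.2), and for Il6st 0.32 against 0.21 (percentile 84.4). Socs3 lay nearest the middle, at 0.213 against 0.205 (percentile 54.5). The extremes were spread over the libraries. Pracinostat replicate 2 held the highest of the 7 values for 4 of the 10 genes, while Pracinostat replicate 3 and DMSO replicate 2 held the lowest for 3 each.

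**Figure D3:**
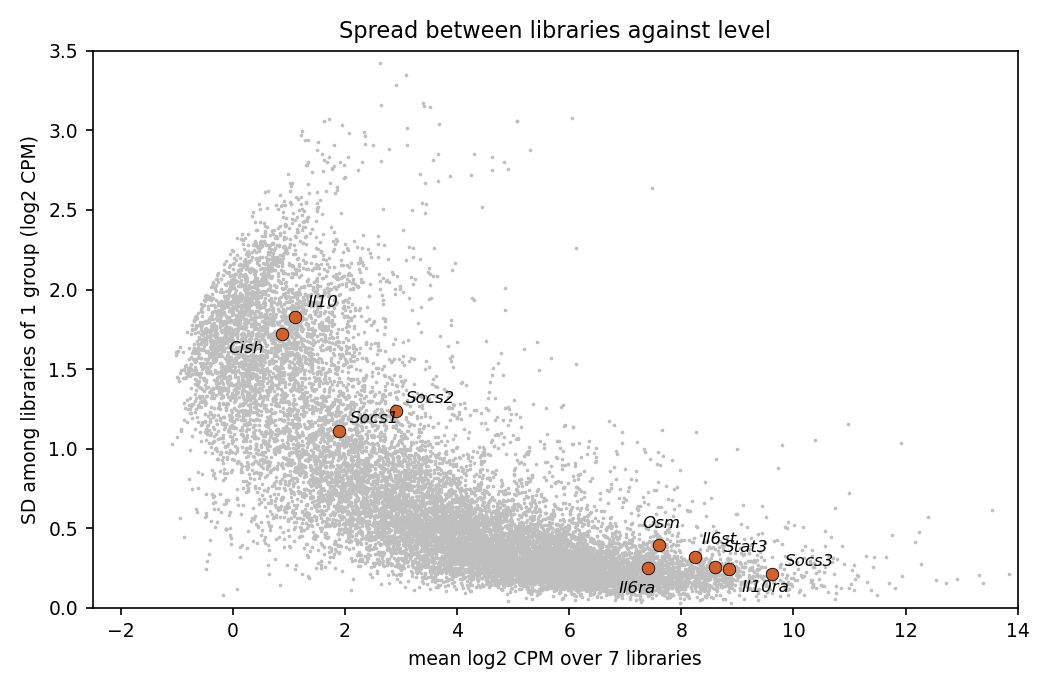
SD of log2 CPM within groups, pooled over both groups (vertical axis), against mean log2 CPM over the 7 libraries (horizontal axis). Grey points are the 15822 genes tested and orange points the 10 named genes. The axes are cut, and S100a9, at an SD of 3.66, lies outside them. The 4 scarce genes Cish, Il10, Socs1 and Socs2 lie above 1 on the vertical axis and the 6 abundant ones at 0.40 or below.

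The rest of the pathway was described with 8 lists of textbook components and targets, holding 85 different genes, of which 79 were tested. Of these 79, 0 passed after adjustment over all genes, 4 were higher and 1 lower at an unadjusted p under 0.05 (6.33%, against 4.18% of all genes), and groups did not overlap for 4 (5.06%, against 6.1%). The median log2 fold change was 0.10.

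Among other ligands of gp130, 4 of the 5 tested genes had positive log2 fold changes, and 0 had an unadjusted p under 0.05. The median was 1.13, and 52.3% of all genes were positive. Without 1 library, 3 to 5 of the 4 or 5 tested were positive. The median then ran from 0.55 without DMSO replicate 3 to 1.69 without DMSO replicate 2. Il6 itself was scarce, at 5.31 ± 3.37 CPM with Pracinostat (SD, n = 4) and 2.01 ± 1.76 CPM with DMSO (SD, n = 3), with a log2 fold change of 1.41 ± 1.08. Clcf1, cardiotrophin-like cytokine, was at 1.33 ± 0.77, and Il27, a subunit of interleukin 27, at 1.13 ± 2.00 with values of at most 1.35 CPM. Of the receptors that pair with gp130, 1 of 4 was positive, and 2 of 4 without DMSO replicate 1 or without DMSO replicate 3. Lifr, the receptor chain for leukaemia inhibitory factor, was at -0.03 ± 0.24. Osmr, the partner chain for oncostatin M, was at -0.44 ± 1.12, with 0 counts in Pracinostat replicate 4. Endothelial markers (Pecam1, Cldn5, Flt1, Kdr, Cdh5 and Tek) summed to 89.2 CPM in that library and to 240 to 387 CPM in the others. Their part in the Osmr values was not tested. Il12rb2, an interleukin 12 receptor chain, was at -0.90 ± 1.11.

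Among the kinases, Jak1 stood at 358 ± 23.0 CPM with Pracinostat (SD, n = 4) and 349 ± 20.4 CPM with DMSO (SD, n = 3), a log2 fold change of 0.03 ± 0.14, while Jak3 was at 0.10 ± 0.18 and Tyk2 at -0.17 ± 0.19. Of the 5 other STATs listed, 4 were positive with a median of 0.10, and 0 had an unadjusted p under 0.05. Without DMSO replicate 3, 2 of 5 were positive with a median of -0.03. Leaving out Pracinostat replicate 2 gave a median of 0.06 and leaving out Pracinostat replicate 4 gave 0.05. It was 0.17 when DMSO replicate 1 was left out and 0.18 when Pracinostat replicate 3 was, each with 1 gene at an unadjusted p under 0.05. Stat2, which transmits type I interferon signals, was at 0.18 ± 0.19 and Stat5a, which many growth factor cytokines activate, at -0.15 ± 0.25. Stat4, which transmits interleukin 12 signals, had the largest value of the 5, at 0.95 ± 0.51 (unadjusted p = 0.0842, edgeR adjusted p = 0.9998). It had 16.2, 18.5, 4.76 and 9.48 CPM in Pracinostat replicates 1 to 4 and 9.20, 5.52 and 4.32 CPM in DMSO replicates 1 to 3.

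Of 16 other cytokine receptor chains, 7 were positive with a median of -0.03. Without DMSO replicate 1, 11 were positive with a median of 0.13, and without Pracinostat replicate 3, 11 were positive with a median of 0.08. In the other 5 such fits the median was negative. Beside Il10rb, 2 had an unadjusted p under 0.05, and both encode beta chains of the receptors for IL-3 and GM-CSF. Csf2rb2, the form specific to IL-3 in mice, had 154, 183, 141 and 177 CPM in Pracinostat replicates 1 to 4, against 100, 122 and 120 CPM in DMSO replicates 1 to 3, and the groups did not overlap. Its log2 fold change was 0.52 ± 0.16 (unadjusted p = 0.00639, edgeR adjusted p = 0.9998). Csf2rb, the common chain, was at 0.39 ± 0.17 (unadjusted p = 0.0373). Only 1 gene of this list was higher at an unadjusted p under 0.05 without Pracinostat replicate 1, 2 or 4. The same held without DMSO replicate 3. Of all genes tested, 2.81% were higher at an unadjusted p under 0.05, and 3.51% were higher with groups that did not overlap. These neighbouring genes are near-identical and can share reads, so neither value stands alone. Groups also did not overlap for Il2rg, chosen here after its values were seen, at 5.93 ± 1.39 CPM with Pracinostat (SD, n = 4) and 2.39 ± 1.39 CPM with DMSO (SD, n = 3). The log2 fold change of Il2rg was 1.31 ± 0.66 (unadjusted p = 0.0679, edgeR adjusted p = 0.9998). Because the host strain carries a null allele of Il2rg, these reads cannot be read as expression of a working common gamma chain.

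Among 17 other negative regulators, 11 were positive with a median of 0.07. The count ran from 9 to 12 without 1 library, and the median from 0.03 without DMSO replicate 3 to 0.18 without DMSO replicate 1. Socs7, a SOCS family member, had 50.7, 64.0, 48.4 and 53.6 CPM in Pracinostat replicates 1 to 4, against 35.5, 44.8 and 36.0 CPM in DMSO replicates 1 to 3. Every Pracinostat value lay above every DMSO value, with a log2 fold change of 0.48 ± 0.21 (unadjusted p = 0.0356, edgeR adjusted p = 0.9998). Over all genes tested, 2.81% were higher at an unadjusted p under 0.05, and 3.51% were higher without overlap of the groups. No gene of this list had an unadjusted p under 0.05 without Pracinostat replicate 2 or without DMSO replicate 3. Rnf7, a subunit of the cullin ligases into which SOCS proteins assemble, was at 0.52 ± 0.26 and the SUMO ligase Pias2 at 0.30 ± 0.25.

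**Figure D4:**
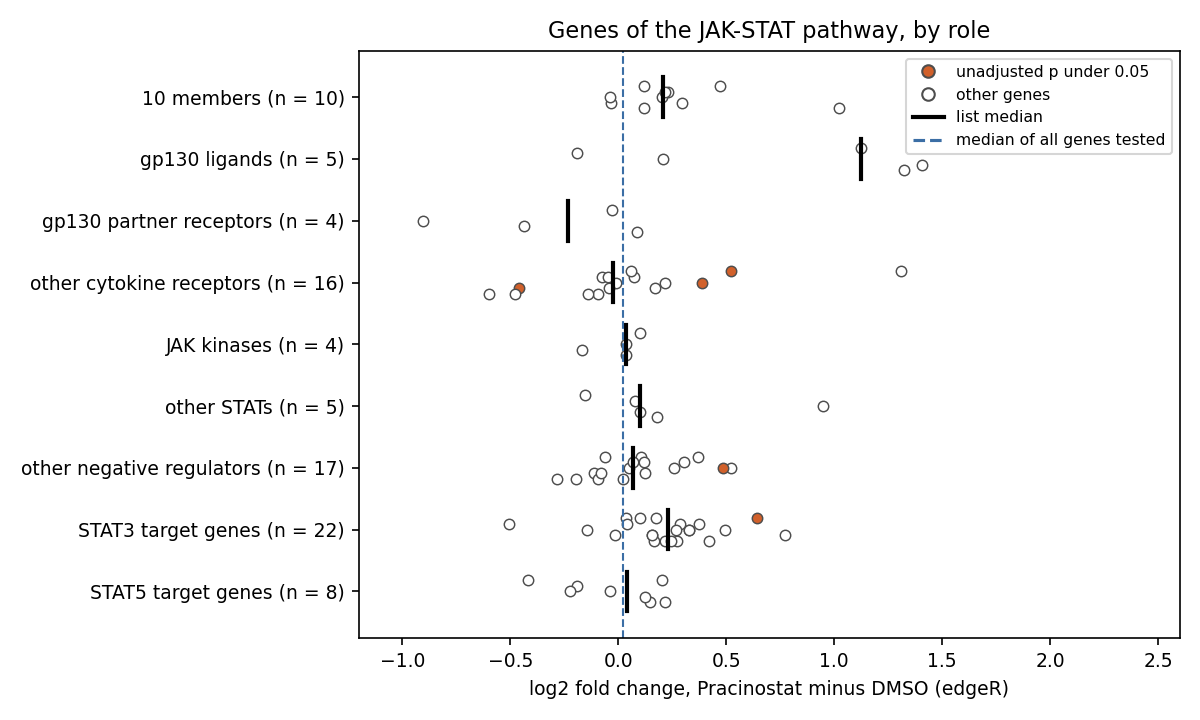
Log2 fold change, Pracinostat minus DMSO, of every tested gene in each list (points; orange for an unadjusted p under 0.05), with the list median (black bar) and the median of all 15822 genes (dashed line). The 5 orange points are Csf2rb2, Csf2rb, Il10rb, Socs7 and Icam1.

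STAT3 target genes were positive in 19 of 22, with a median log2 fold change of 0.23, beside 52.3% positive and a median of 0.02 over all genes. At an unadjusted p under 0.05 there was 1 of 22 (4.55%, against 4.18% of all genes), and groups did not overlap for 0. That gene was Icam1, an adhesion molecule that NF-kappaB also induces, at 399, 526, 387 and 337 CPM in Pracinostat replicates 1 to 4 and 211, 237 and 345 CPM in DMSO replicates 1 to 3. Its log2 fold change was 0.64 ± 0.20 (unadjusted p = 0.00590, edgeR adjusted p = 0.9998). Hif1a, the hypoxia-inducible factor, was at 0.33 ± 0.19 and the AP-1 factor Junb at 0.27 ± 0.17. Of STAT5 targets 4 of 8 were positive with a median of 0.04, which ran from -0.06 without DMSO replicate 1 to 0.20 without DMSO replicate 2, the smallest p values belonging to Tnfrsf13b (-0.42 ± 0.27), the survival gene Bcl2l1 (0.15 ± 0.16) and the cyclin Ccnd2 (0.20 ± 0.32).

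The STAT3 targets were uneven within the Pracinostat group. Replicate 3 held the lowest of the 7 values for 13 of the 22 genes, and replicates 1 and 2 the highest for 9 and 6. The neutrophil sum without Csf3r was 6.22 CPM in replicate 3 and 8.76 CPM in DMSO replicate 3, which held the lowest value for 2 of the 22; the part of neutrophil RNA in this was not tested. Without replicate 3, 19 of 22 were positive with a median of 0.37. In that fit 8 of 22 had an unadjusted p under 0.05, against 4.1% of all genes. Because replicate 3 was the lowest library for most of these genes, a larger difference without it follows from that choice. In the other fits without 1 library, 1 or 2 of the 22 had an unadjusted p under 0.05. Without DMSO replicate 2, 17 of 22 were positive with a median of 0.14. Without the 2 collagen-rich libraries, 13 of 22 were positive with a median of 0.07.

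**Figure D5:**
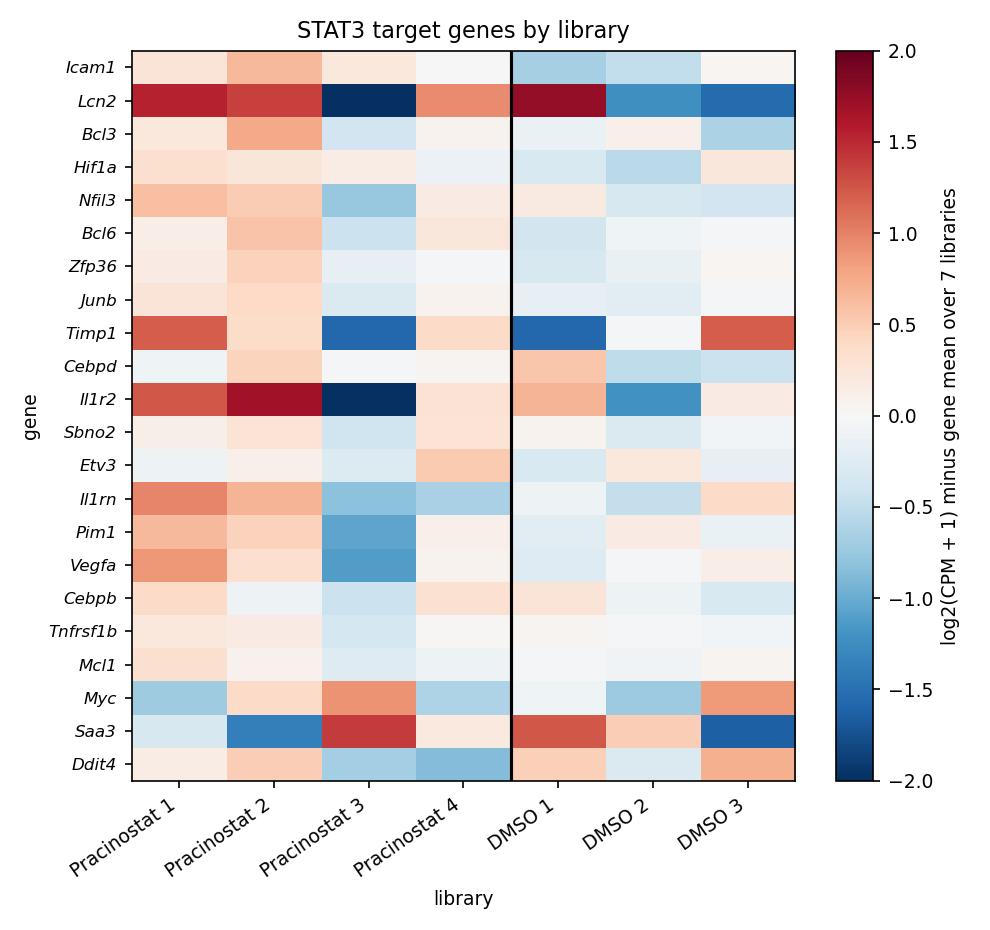
Log2(CPM + 1) of the 22 STAT3 target genes in each library, relative to the average of the 7 libraries for that gene (red above, blue below; colours saturate at 2 either way), with genes ordered by the difference of group means. Pracinostat replicate 3 is blue for most genes.

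For the genes with the profile most like Socs3 over the 7 libraries, the Pearson correlations of log2 CPM were 0.97 for Ovca2 and 0.96 for Klhl15 and Klhl21. For Stat3 they were 0.95 for Rapgef2, 0.95 for Zbtb4 and 0.94 for Eif3f, and for Il10ra 0.97 for Acap3, C2cd2l and Bod1l. With 10373 genes compared over 7 libraries, 29, 16 and 35 genes had a correlation above 0.9 with Socs3, Stat3 and Il10ra, so these names only describe the profiles.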

How the data were processed

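Each row of the deposited table is a gene symbol, with expected counts kept as whole numbers and no normalization. Total RNA libraries (1 ng input, stranded kit) were read as pairs of 150 bases over 2 lanes, per the labels' protocols. STAR and RSEM, beside Trim Galore, FastQC, MultiQC and DESeq2, are named by the submitters' processing notes, with the build GRCm39. The sources used here give no versions, annotation or strand setting, so overlapping and antisense genes are uncertain. Rows with an Ensembl identifier as symbol (3205) hold 1.21% of counts.

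Pracinostat was compared with DMSO in edgeR 4.0.16 (R 4.3.3) with TMM scaling, filterByExpr (minimum count 10), robust quasi-likelihood estimation and two-sided tests, adjusted by Benjamini-Hochberg over all genes tested. Standard errors are the fold change over the root of the F statistic, and levels are CPM with TMM scaling. On simulated counts for this comparison (15822 genes, 200 changed), 37.3% of the 2-fold changes were called, 66.7% at 4-fold and 86.4% at 8-fold. Scarce genes were left out when the changed genes were drawn. These rates therefore do not cover genes as scarce as Socs1, Cish, Il10 or Il27. Named were the 10 genes, each list's 3 smallest p values and any gene with an unadjusted p under 0.05, and 3 genes of like profile for Socs3, Stat3 and Il10ra. The genes and lists were chosen with earlier results of these data known, and 1 gene of the pathway is not reported here. No 2 libraries agreed within sampling noise. Alternatives used DESeq2 1.42.0, limma 3.58.1, other scalings and filters, left-out libraries and a replicate block.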

Additional observations from a re-analysis of the deposited data

How the results depend on the processing

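In all 18 alternatives 0 of the 10 genes passed adjustment over all genes. Over the whole table the count of 0 stayed at 0 in 14 of the 18. It was 63 with no low-count filter, 27 with DESeq2 and 4 with the replicate block, and ran from 0 to 3 when 1 library was left out, the 3 without DMSO replicate 3; the cause was not tested. The median log2 fold change of all genes was 0.02 with TMM and 0.00023 to 0.011 with the other scalings. Of 179 values for the 10 genes, 159 kept their direction and 20 did not, and of 427 values for the other 24 named genes 8 did not. With limma-voom, Socs1 was at 0.059 and Il10 at -0.82. Leaving out 1 library gave -0.45 to 0.30 for Socs1, -0.023 to 1.64 for Socs2, -0.18 to 1.07 for Il10, -0.046 to 0.21 for Il10ra, -0.14 to 0.11 for Il6ra and -0.12 to 0.25 for Osm. It gave -0.28 to 0.15 for Lifr, -0.012 to 0.077 for Jak1, -1.05 to 0.13 for Osmr and -1.35 to 0.31 for Il12rb2. Without both collagen-rich libraries Socs1 was at 0.17, Il10 at -0.51, Il6ra at 0.093, Osm at -0.15 and Lifr at 0.077. With the replicate block, over the 6 libraries whose numbers occur in both groups, Socs1 was at 0.47, Il10 at -0.73 and Il10ra at -0.041. Whether libraries with the same number are paired is not said in the labels. Their deviations from the group means correlated at 0.0715, 0.00901 and 0.144, and DMSO replicate 2 correlated best with Pracinostat replicate 4. With the stricter filter Cish was not tested. Positive genes were also counted per list under every setting, an alternative chosen after seeing the data; in the 7 fits without 1 library they numbered 15 to 19 of the 22 STAT3 targets. Among the 4 scarce genes the lowest library held 9 counts for Socs1, 22 for Socs2 and 0 for Cish and Il10, and counting error was not separated from the spread between libraries.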

Other observations

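Osm and its receptor subunit Il6st took opposite extremes in Pracinostat replicate 3. It had the highest Il6st of the 7, at 427 CPM, and the lowest Osm, at 144 CPM. Pracinostat replicate 1 had the highest Osm, at 296 CPM, with Il6st at 242 CPM, below every library but DMSO replicate 3. DMSO replicate 3 had the lowest Il6st, at 217 CPM, and the second-highest Osm, at 218 CPM. The pair was chosen after its values were seen, and no test was run on it.

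Il4ra, the receptor chain for IL-4 and IL-13 and a known IL-10 target in macrophages, was at 485, 711, 468 and 684 CPM in Pracinostat replicates 1 to 4 and at 730, 566 and 521 CPM in DMSO replicates 1 to 3, with overlapping groups. Ifngr1, the ligand-binding chain for interferon gamma, whose lymphocyte sources NSG mice lack, was at 232, 232, 192 and 255 CPM with Pracinostat and 311, 203 and 174 CPM with DMSO. Both genes were chosen after their values were seen.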
